A study of Mus musculus with 45 samples.

Results

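The cultures described here are the vehicle controls of a study of bisphenol S (BPS) in explanted mouse limbs, compared between their first sampling at 3 h and their second at 24 h. All 10 libraries given dimethyl sulfoxide (DMSO), the solvent for BPS, at these times were taken by their labels, 5 at 3 h and 5 at 24 h, out of 45 libraries in 9 groups of 5. Every library came from forelimb buds of CD1 mouse embryos at gestation day 13. Limbs of male and female embryos were pooled and grown in gassed glass bottles, so each library is a mixture of tissues from several embryos, and the labels give no difference between the groups here other than culture time. The other groups used below received DMSO for 48 h, or 10 or 50 µM BPS for 3 or 24 h. The series states 5 samples a group without saying whether each was a bottle of its own, and the p-values can speak only for the variation among these libraries, part of which may be technical. Limbs that were never cultured were not analysed here, so changes from dissection to 3 h were not measured.

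A limb bud of this age holds condensing cartilage models, muscle precursors that have migrated in from the somites, loose connective tissue, vessels with circulating blood cells, nerves and an ectodermal cover. During the following day in the embryo, chondrocytes leave the cell cycle, lay down matrix and enlarge, osteoblasts appear in the perichondrium, and myoblasts fuse. In an explant there is no blood flow, nerves are cut from their cell bodies, and oxygen and nutrients reach the cells only by diffusion from the medium.

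Total counts ran from 15.4 M to 20 M reads per library, so that 3 reads of a gene, the limit that a count of 0 allows, correspond to 0.15 to 0.195 CPM (reads of a gene per M reads of its library) by counting error alone. Levels below are CPM scaled by the trimmed mean of M values (TMM), and changes are log2 differences, 24 h minus 3 h, with their standard error (SE). A gene was called where edgeR's quasi-likelihood test gave a Benjamini-Hochberg adjusted p below 0.05 over the 16536 genes tested. The label of the tissue was met by its markers: Tbx5, the T-box factor of the forelimb, ran from 287 to 324 CPM over the 10 libraries, and Tbx4, that of the hindlimb, from 21.1 to 28.7 CPM. The first principal component of the 10 libraries, 51.5% of the variance, separated the times. Library 1 of the 3 h group stood apart on the second component (8.83%) and had no read of the Y-linked gene Ddx3y, which ran from 35.9 to 81.0 CPM in the other 9, although the labels give limbs of both sexes. Without that library 6157 genes were called, against 6642 with it. Libraries 1 and 2 of the 24 h group stood apart in genes of the oxygen response, described below, and without both of them 5565 genes were called.

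Of all genes tested 40.2% passed, 20% with more RNA at 24 h and 20.1% with less, and these shares are the background for every count below. Changes of at least 2-fold were fewer (5.75%), with 3.05% of genes higher and 2.69% lower. Over all genes the median log2 change was -0.00928. Groups of 5 libraries did not overlap for 27.6% of genes. The lists of genes counted below are described by their members and their median, and no test of a list as a whole was made. The largest rises among genes of at least 1 CPM were those of Ibsp, Gpnmb, Lyz2, Slc13a5, Krt6a, Ly6d, C1qtnf3, Krt16, Ms4a7, Spp1, Stfa3, Itgbl1, Clec3b, Snorc and Col10a1, between 2.36 and 6.48 on the log2 scale. The largest falls included Hist1h2bk, Gabrp, Ovol1, Dlx2, Hist1h3c, Plvap, Aplnr, Fam163a, Hist1h3e, Hist1h2bj and Ednrb, between -2.23 and -3.28. Reads of Krt6a, Stfa3 and the clustered histone genes can be shared with near-identical copies, so their values are uncertain.

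**Figure D1:**
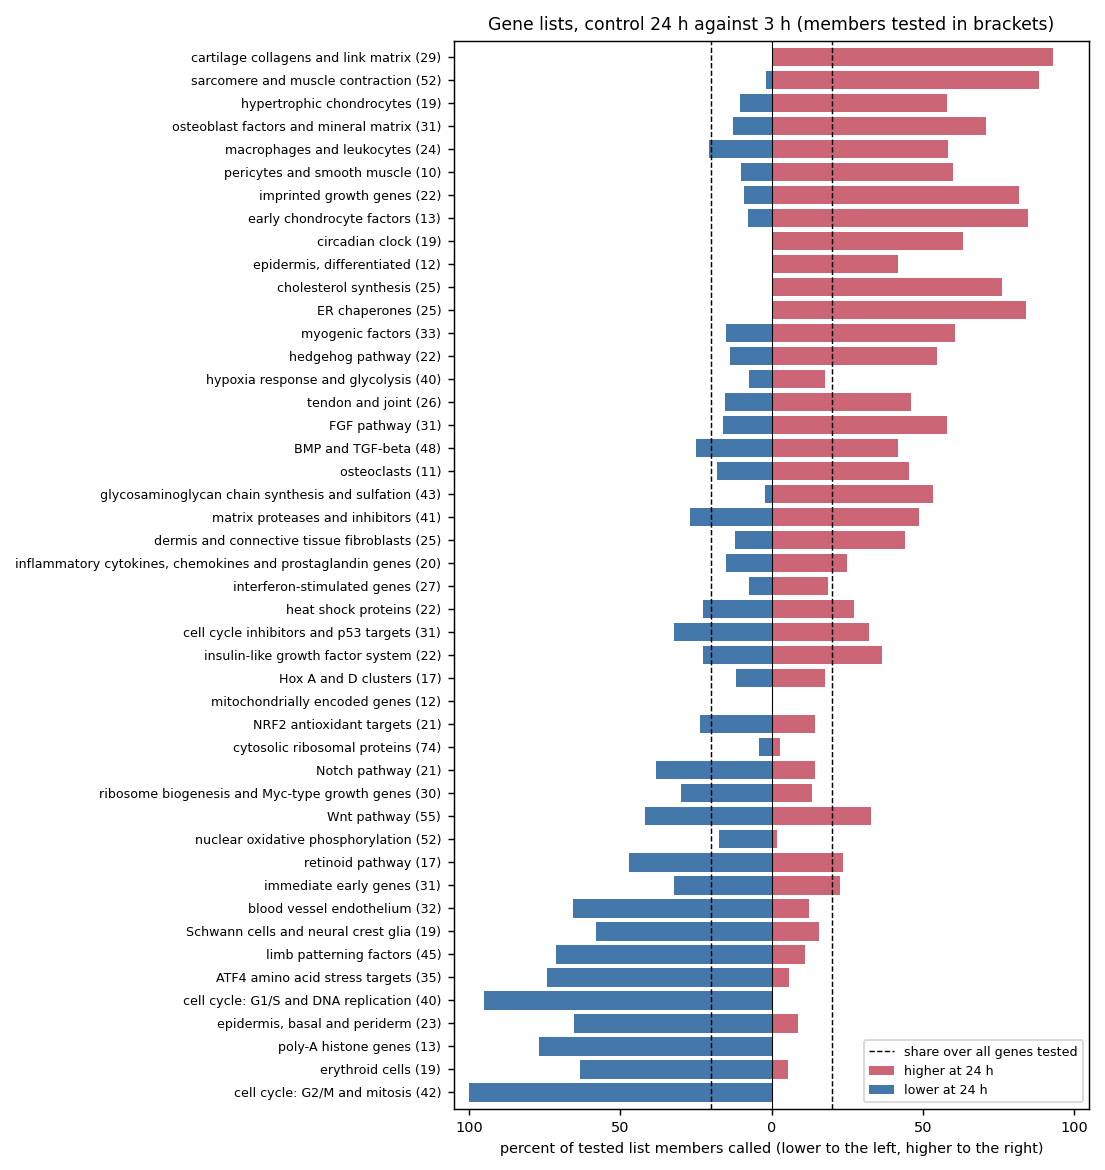
Share of the tested members of each list (at least 10 members, number in brackets) called higher at 24 h (red, to the right) or lower (blue, to the left), with dashed lines at the shares over all genes tested, 20% higher and 20.1% lower. All 42 genes of G2 and mitosis were lower, and 27 of 29 cartilage matrix genes were higher.

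Genes of cell division were lower at 24 h without exception in the mitotic list. All 42 genes of G2 and mitosis fell, 29 of them by at least 2-fold, with a median log2 change of -1.13, and 38 of 40 genes of G1/S and DNA replication fell, with a median of -0.559. Kif2c, a kinesin that takes apart microtubules at the centromere, stood at 73.6, 67.3, 64.9, 73.1 and 77 CPM in 3 h libraries 1 to 5 and at 26, 28, 26.3, 26.4 and 23.4 CPM in 24 h libraries 1 to 5, a log2 change of -1.47 ± 0.07 (SE), adjusted p = 5.80e-13. The groups lay far apart, with every 24 h library at less than the lowest 3 h library. Aurka, the spindle kinase, fell from 59 ± 4.07 to 23.4 ± 2.14 CPM (mean ± SD, n = 5, as in all such pairs below), and Cenpe, a kinesin of the kinetochore, from 97.9 ± 10.1 to 40.3 ± 3.89 CPM. Among the replication genes the falls were smaller: Mcm5, a subunit of the replicative helicase, went from 182 ± 10.5 to 113 ± 6.72 CPM, Pcna, the polymerase clamp, from 143 ± 5.49 to 100.6 ± 5.37 CPM, and Mcm10 from 35.9 ± 2.01 to 18.8 ± 1.42 CPM. Of 13 histone genes found in this poly-A RNA 10 fell and none rose. H2afx and H2afz, which unlike most histone genes make polyadenylated transcripts, had log2 changes of -0.87 and -0.73, and Hist1h2ae fell from 3.71 ± 0.909 to 0.668 ± 0.333 CPM. The list of cell cycle inhibitors and p53 targets, which also holds the D-type cyclins, moved both ways, 10 of 31 rising and 10 falling. Cdkn1a and Cdkn1c, which inhibit cyclin-dependent kinases, rose from 62.1 to 105.2 and from 902 to 1251 CPM, whereas Btg2 and Plk2 fell by log2 changes of -0.54 and -0.73.

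Promoters are shown for members of both division lists because the lists moved together and differ in a motif. Windows of 300 bases around the start (250 before and 50 after, RefSeq, GRCm38.p6) could be matched to 10650 of the 16536 tested genes, and motifs were searched on both strands. The cell cycle homology region (CHR), TTTGAA, was in 21 of 34 windows of the G2 and mitosis genes, 61.8% against 11.3% of all windows, and in 6 of 34 of the G1/S genes. The E2F motif TTCCCGC was in 15 of 34 windows of the G1/S genes, 44.1% against 8.61% of all, and in 0 of 34 of the G2 and mitosis genes. CCAAT was in 73.5% of the G2 and mitosis windows and 70.6% of the G1/S windows, against 38.5% of all. A match is a run of letters and not a measured binding site. Below are the 150 bases before the start, 5′ to 3′, of 2 genes of each list with these motifs inside that stretch. The 2 had the smallest adjusted p among 7 G2 and mitosis members and among 8 G1/S members considered. Capitals mark CCAAT and CHR in Ube2c (chr2:164769779-164769928, plus strand) and Top2a (chr11:99024190-99024339, minus strand), on either strand, and the E2F motif in Chaf1a (chr17:56040266-56040415, plus strand) and Uhrf1 (chr17:56303187-56303336, plus strand).
Ube2c: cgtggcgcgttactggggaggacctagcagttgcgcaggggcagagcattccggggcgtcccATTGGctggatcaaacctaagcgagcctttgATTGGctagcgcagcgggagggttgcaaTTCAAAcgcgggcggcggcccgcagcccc
Top2a: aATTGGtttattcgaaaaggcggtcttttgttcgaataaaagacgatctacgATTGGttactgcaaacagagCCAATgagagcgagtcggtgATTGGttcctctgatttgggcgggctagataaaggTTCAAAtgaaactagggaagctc
Chaf1a: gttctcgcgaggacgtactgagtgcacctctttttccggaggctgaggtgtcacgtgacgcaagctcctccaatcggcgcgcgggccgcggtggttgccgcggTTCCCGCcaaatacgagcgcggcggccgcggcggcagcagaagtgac
Uhrf1: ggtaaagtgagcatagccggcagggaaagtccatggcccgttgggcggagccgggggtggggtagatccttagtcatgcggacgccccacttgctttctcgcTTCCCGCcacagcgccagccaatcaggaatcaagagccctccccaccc
Ube2c, which passes ubiquitin to mitotic cyclins, stood at 114, 109, 114, 122 and 118 CPM in the 3 h libraries and at 54.7, 49.8, 51.5, 55.2 and 46.5 CPM in the 24 h libraries. Top2a, which untangles sister chromosomes, fell from 398 ± 39.7 to 190.1 ± 8.61 CPM. Chaf1a, which brings histones to new DNA, fell from 77 ± 3.64 to 44.7 ± 2.27 CPM, and Uhrf1, which carries DNA methylation through replication, from 184 ± 16.7 to 111 ± 5.44 CPM. The log2 changes were -1.18 for Ube2c, -1.08 for Top2a, -0.80 for Chaf1a and -0.74 for Uhrf1. These genes were picked by their adjusted p, and members with and without a motif were not compared.

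Genes for amino acid supply and tRNA charging were mostly lower at 24 h than at 3 h. Many are targets of ATF4, a transcription factor made when cells lack amino acids or carry unfolded protein. Of 35 such genes 26 fell and 2 rose, with a median log2 change of -0.55. Slc7a1, the main carrier of arginine and lysine, stood at 147, 134, 134, 116 and 130.4 CPM at 3 h and at 62, 62, 57.7, 58 and 59 CPM at 24 h, a log2 change of -1.17 ± 0.06 (SE), adjusted p = 3.04e-12. No 24 h library reached the range of the 3 h group. Slc7a11, the cystine importer, fell from 21.9 ± 4.35 to 6.8 ± 0.648 CPM, and Slc7a5, which brings in leucine, from 208 ± 21.4 to 77.7 ± 10.1 CPM. Enzymes fell as well: Asns, which makes asparagine, from 129 ± 8.66 to 70.2 ± 5.52 CPM, Mthfd2, of mitochondrial folate metabolism, from 113 ± 8.11 to 61.6 ± 2.08 CPM, and Aars, the alanine tRNA synthetase, from 257 ± 17.7 to 150.2 ± 5.95 CPM. The stress-induced regulators Sesn2, Trib3 and Chac1 had log2 changes of -1.09, -1.26 and -1.15. Atf4 itself changed little in RNA, from 249 ± 15.5 to 228 ± 9.99 CPM (log2 change -0.14, adjusted p = 0.0338), and its protein was not measured. That small call was lost without any single library but 3 h library 1 and 24 h libraries 1 and 2 (adjusted p from 0.0529 to 0.113, edgeR), and in the fit on all 45 libraries (0.0944). Atf3, a target of ATF4 that also answers to other stresses, fell from 27.7 ± 3.69 to 8.42 ± 1.44 CPM.

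A composite element for C/EBP and ATF factors, TGATGNAA, was added to the motifs after the values had been seen. It was in 8 of 26 windows of this list, 30.8% against 2.08% of all windows. The members below are shown for their element (capitals, on either strand): Aars (chr8:111033692-111033841, plus strand), Asns (chr6:7693210-7693359, minus strand) and Slc7a11 (chr3:50443614-50443763, minus strand).
Aars: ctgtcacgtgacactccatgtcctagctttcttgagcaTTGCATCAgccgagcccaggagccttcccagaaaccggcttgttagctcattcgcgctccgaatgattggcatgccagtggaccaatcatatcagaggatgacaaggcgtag
Asns: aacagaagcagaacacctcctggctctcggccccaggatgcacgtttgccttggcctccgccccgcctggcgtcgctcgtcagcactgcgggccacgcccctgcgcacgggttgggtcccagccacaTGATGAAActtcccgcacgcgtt
Slc7a11: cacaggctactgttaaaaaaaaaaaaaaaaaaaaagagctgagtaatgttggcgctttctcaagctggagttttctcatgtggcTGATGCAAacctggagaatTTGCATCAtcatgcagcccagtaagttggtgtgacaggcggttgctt
Across libraries 1 to 5 Asns stood at 129, 119.7, 124, 128 and 143 CPM at 3 h and at 72.2, 67.1, 63.2, 70.6 and 77.9 CPM at 24 h, and Slc7a11 at 27, 23.2, 17.2, 17.7 and 24.6 and 7.0, 6.77, 7.68, 5.88 and 6.67 CPM. For both genes every 24 h library was below every 3 h library.

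Sterol synthesis and the protein folding machinery of the endoplasmic reticulum (ER) rose over the same interval. Of 25 cholesterol genes 19 rose and none fell, with a median log2 change of 0.36, and of 25 ER chaperones and their regulators 21 rose and none fell, with a median of 0.331. None of either list rose by 2-fold. Msmo1, an enzyme of sterol synthesis, stood at 32.8, 41.5, 39.9, 39.3 and 35.1 CPM at 3 h and at 49.6, 53.5, 59.8, 66 and 70.9 CPM at 24 h. Every 24 h library was above every 3 h library. Cyp51, another enzyme of sterol synthesis, rose from 80.1 to 109 CPM. Hmgcs1, at the head of the mevalonate pathway, rose from 126 to 164 CPM. Insig1, which holds the sterol sensor in the ER, had a log2 change of 0.55. Manf, a secreted ER stress protein, stood at 51.6, 57.1, 63.8, 59.4 and 65.5 CPM at 3 h and at 106, 104.9, 102, 112 and 97.8 CPM at 24 h. Hspa5, the main ER chaperone, rose from 506 ± 10.9 to 723 ± 34.4 CPM, and Xbp1, a transcription factor that expands the ER, from 82.6 ± 5.38 to 139 ± 0.97 CPM. Members that fold collagen rose too: P3h1, Fkbp10, Serpinh1 and Crtap had log2 changes of 0.60, 0.46, 0.40 and 0.44.

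CCAAT was in 14 of 16 windows of the cholesterol genes (87.5% against 38.5% of all). In all 10 motifs were searched over 8 lists, and some were in no window of the list they are known for. The sterol response element, also added after the values had been seen, was in 0 of 16 windows of the cholesterol genes (0.0376% of all), the SOX motif ACAAAG in 0 of 21 of the cartilage matrix genes (13% of all) and the GLI motif GACCACCCA in 0 of 15 of the hedgehog genes (0.207% of all). Mvd, an enzyme that makes the first isoprene unit, is shown for its pair of CCAAT boxes in capitals (chr8:122443423-122443572, minus strand).
Mvd: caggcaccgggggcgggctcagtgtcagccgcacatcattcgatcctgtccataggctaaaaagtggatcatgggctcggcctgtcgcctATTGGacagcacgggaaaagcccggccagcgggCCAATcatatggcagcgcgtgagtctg
The level of Mvd was 38 ± 1.66 CPM at 3 h and 53 ± 0.819 CPM at 24 h (log2 change 0.46 ± 0.06 (SE), adjusted p = 8.69e-07).

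The list of cartilage matrix genes had a higher median change than the list of early chondrocyte factors, a difference that was not tested. Mef2c and Mef2d of the factor list are also counted among the myogenic factors below. Of 29 matrix genes 27 rose and none fell, 23 by at least 2-fold, with a median log2 change of 1.37, and of 13 early chondrocyte factors 11 rose and 1 fell, with a median of 0.445. Susd5, a hyaluronan-binding membrane protein on chromosome 9, 114057140 to 114098728, plus strand, had the smallest adjusted p of the list, with 49.5, 53.1, 57.9, 51.2 and 50.6 CPM at 3 h and 152, 162, 152, 156 and 172 CPM at 24 h (log2 change 1.58 ± 0.06 (SE), adjusted p = 6.56e-14). Cytl1, a secreted protein of chondrocytes, stood at 22.8, 27.3, 32.6, 27.8 and 24.5 CPM at 3 h and at 134, 137, 129, 137 and 115 CPM at 24 h. The 2 times did not overlap for either gene. Col11a2 and Col27a1, chains of fibrillar collagens, rose from 306 to 1005 and from 245.3 to 641 CPM. Cnmd, a secreted inhibitor of vessel growth, rose from 53.3 ± 6.14 to 188 ± 18.7 CPM and Hapln1, which links aggrecan to hyaluronan, from 121 ± 10.7 to 386 ± 42.7 CPM. Not all members of the factor list are early: Foxa3 and Mef2c, which act in hypertrophic chondrocytes, had its largest log2 changes, 1.54 and 1.09. Sox6 and Sox5, partners of SOX9, had changes of 0.71 and 0.37, and Nkx3-2 one of 0.81. Sox9 itself ran from 433 to 489 CPM at 3 h and from 464 to 502 CPM at 24 h and was not called (log2 change 0.05 ± 0.05).

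The list of enzymes that build and sulfate the sugar chains of proteoglycans had a lower median change in RNA than the matrix list. That difference was not tested. Of 43 such genes 23 rose and 1 fell, with a median log2 change of 0.143 that moved between 0.109 and 0.204 with the processing. The rises were led by Xylt1, which adds the first xylose (41.6 to 81.3 CPM), Chst11, a chondroitin sulfotransferase (78.5 to 159 CPM), and Papss2, which makes the sulfate donor (150.3 to 259 CPM). Papss2 is also counted among the matrix genes above. Slc35d1, a carrier of sugar nucleotides into the Golgi, and Csgalnact1, which starts the chondroitin chain, had log2 changes of 0.71 and 0.65. Ndst3, an enzyme of heparan sulfate, fell from 1.84 ± 0.488 to 0.549 ± 0.156 CPM.

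Most genes of hypertrophic chondrocytes and bone rose. Of 19 genes of hypertrophic chondrocytes 11 rose and 2 fell, with a median log2 change of 0.667, and of 31 osteoblast and mineral genes 22 rose and 4 fell, with a median of 0.619. The lists overlap: Spp1, Runx2, Alpl, Ibsp and Dmp1, which all rose, are counted in both. Smpd3, a membrane sphingomyelinase needed for mineralization, stood at 9.4, 9.69, 13.4, 10.6 and 9.05 CPM at 3 h and at 45.3, 54.2, 57, 51.1 and 44.8 CPM at 24 h. Panx3, a channel protein of hypertrophic cells and osteoblasts, rose from 9.44 ± 2.41 to 40.5 ± 6.76 CPM, and Sgms2, which makes sphingomyelin at the plasma membrane, from 25.4 ± 3.39 to 73.9 ± 14.4 CPM. Alpl, the phosphatase that frees phosphate, rose from 8.95 ± 2.58 to 27.7 ± 3.85 CPM, and Enpp1, which makes its pyrophosphate substrate, from 19.7 ± 1.49 to 43.5 ± 2.9 CPM. Ogn and Cthrc1, secreted by cells of the osteoblast line, had log2 changes of 1.27 and 0.99. Slc13a5, a citrate carrier outside these lists, was at 0.625 to 1.52 CPM in the 3 h libraries and at 6.26 to 10.7 CPM in the 24 h libraries, and Ibsp, bone sialoprotein, at 0.0611 to 1.59 and 43.6 to 98.6 CPM. Mmp13 lay below the filter on low counts and was not tested. Pth1r, the receptor of the loop that delays hypertrophy, was not called (127 ± 8.06 and 143 ± 12.2 CPM).

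Genes of hedgehog signalling rose alongside, 12 of 22 rising and 3 falling. Hhip, a decoy receptor that is itself a target, rose from 32.5 ± 2.72 to 65.5 ± 6.33 CPM and Foxf2, a target in mesenchyme, from 10.8 ± 1.8 to 23.2 ± 2.87 CPM. Sufu, which restrains the pathway, fell from 109 ± 4.29 to 90.2 ± 2.63 CPM. Shh was below the filter.

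Genes of connective tissue, tendon and matrix turnover moved both ways, with more rising than falling in each list. Of 26 genes of tendon and joint 12 rose and 4 fell. Fmod and Prg4, which rose, are also counted among the cartilage matrix genes above. Thbs2, a matricellular protein, stood at 43.3, 47.6, 42.8, 42.8 and 39.9 CPM at 3 h and at 139.5, 115, 117, 121 and 119 CPM at 24 h. Scx, the tendon transcription factor, and Tnmd, a membrane protein of mature tendon, rose from 51 to 99.8 and from 10.2 to 27.8 CPM. Gdf5, a ligand of the joint interzone, fell from 99 ± 7.14 to 73.3 ± 5.57 CPM, whereas Prg4, the joint lubricant, had a log2 change of 0.87. Of 41 proteases and inhibitors 20 rose and 11 fell, led by Htra1 (36.1 to 96 CPM), Timp2 (280.3 to 467 CPM) and Mmp9 (10.2 to 28 CPM). In the fibroblast list 11 of 25 rose and 3 fell, among them Eln, elastin (137 ± 18.9 to 359 ± 53.9 CPM), and Fbln5, which assembles elastic fibres (56.8 ± 1.89 to 141 ± 11.3 CPM).

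Muscle genes rose from the factors to the fibre. Of 33 myogenic factors and junction genes 20 rose and 5 fell, with a median log2 change of 0.307, and of 52 sarcomere genes 46 rose and 1 fell, 32 of them by at least 2-fold, with a median of 1.14. Myog, which commits myoblasts to differentiate, rose from 124 ± 3.4 to 185 ± 18.5 CPM, and Mymk, which fuses them, from 20.3 ± 2.58 to 49.2 ± 9.05 CPM. Subunits of the fetal acetylcholine receptor rose together, with log2 changes of 1.15, 1.22, 1.40 and 0.87 for Chrng, Chrna1, Chrnd and Chrnb1. In the fibre, Tnnt2, a troponin, rose from 42.2 ± 1.46 to 135 ± 22.7 CPM, Mybph, a myosin-binding protein, from 36.8 ± 3.06 to 102 ± 13.6 CPM, and Ryr1, the calcium channel of the sarcoplasmic reticulum, from 65.3 ± 2.52 to 138 ± 18.6 CPM. Pax7, a marker of muscle precursors, went from 17 ± 1.99 to 18.4 ± 3.62 CPM (log2 change 0.10, adjusted p = 0.538).

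**Figure D2:**
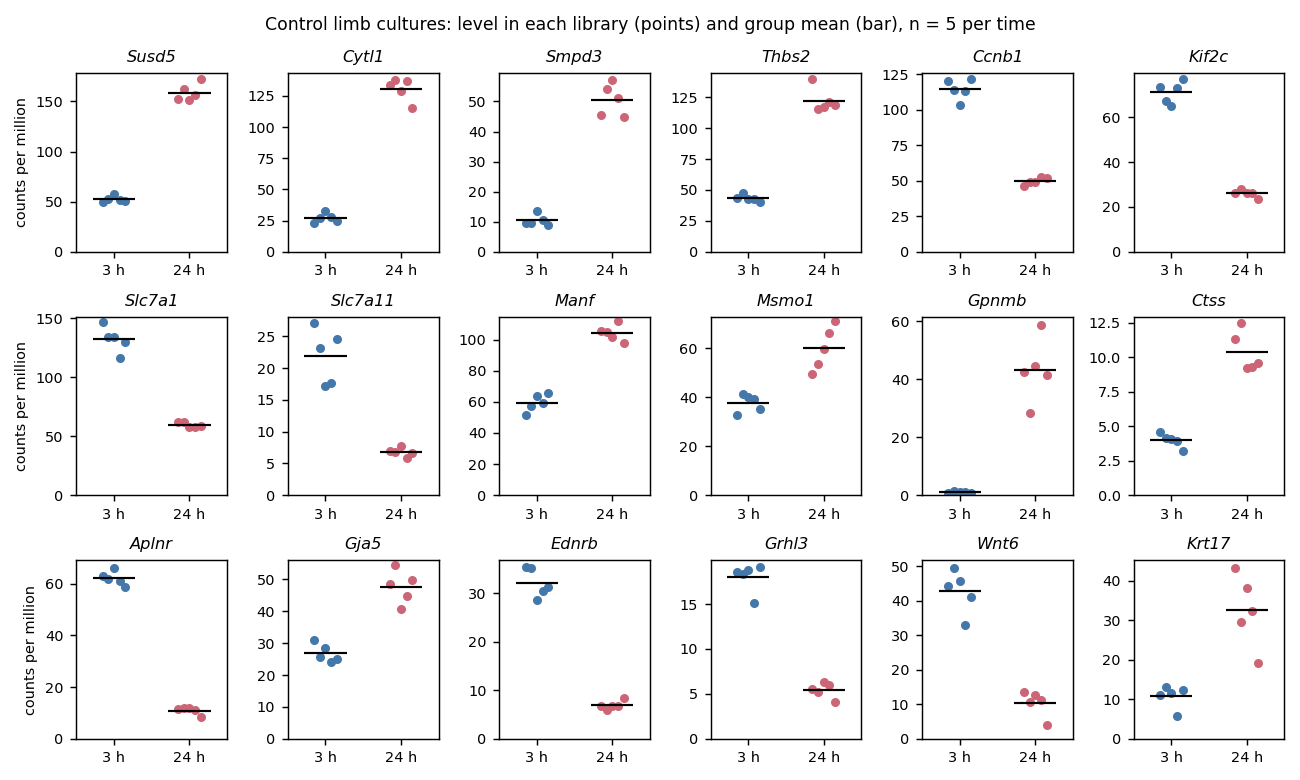
CPM in each control library (points) with the group mean (bar) at 3 h and 24 h for 18 genes, n = 5 per time, on a linear axis from 0. Susd5, Cytl1, Smpd3, Thbs2, Manf, Msmo1, Gpnmb, Ctss, Gja5 and Krt17 are higher at 24 h, and Ccnb1, Kif2c, Slc7a1, Slc7a11, Aplnr, Ednrb, Grhl3 and Wnt6 lower.

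Factors that lay out the limb fell, while the Hox genes changed little. Of 45 patterning factors 32 fell and 5 rose, with a median log2 change of -0.519. Alx4, a homeobox factor of the anterior limb, fell from 24.9 to 9.94 CPM. Meis1 and Meis2, factors of the proximal limb, fell from 13.9 to 6.88 and from 22.3 to 10.4 CPM, and Lhx9, of the distal mesenchyme, from 94.1 ± 8.65 to 48.1 ± 2.45 CPM. Tbx3, a T-box factor of the limb margins, had a log2 change of -0.98, and Dlx1 and Dlx2 had changes of -1.63 and -2.83 at low levels. Etv5, a target of FGF signalling, rose from 63.9 ± 4.02 to 112 ± 6.63 CPM. Of 17 genes of the Hox A and D clusters 3 rose and 2 fell, with a median of 0.0206. The called changes were small: 0.33 for Hoxd10, 0.21 for Hoxa9, 0.16 for Hoxd9, -0.21 for Hoxd13 and -0.15 for Hoxa13. The call of Hoxd9 was lost without 3 h library 1, 2 or 5 or 24 h library 2, 3 or 4 (adjusted p from 0.0615 to 0.154, edgeR), and that of Hoxa13 without any library but 3 h library 3 and 24 h library 5 (0.0675 to 0.114). Hoxa13 also lost its call with DESeq2 (adjusted p = 0.0567), limma-voom (0.0625), DESeq2 size factors, either change of filter and the fit on all 45 libraries, and Hoxd9 with total-count scaling (0.113). Without 24 h libraries 1 and 2 together only 1 of the 17 was called.

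Retinoid genes moved both ways: 8 of 17 fell and 4 rose. Stra6, which takes up retinol, fell from 59 ± 6.45 to 24.5 ± 3.29 CPM, and Aldh1a2, which makes retinoic acid, from 59 ± 9.42 to 27.2 ± 4.87 CPM. Cyp26b1, which destroys it, fell by a log2 change of -0.62, and Rarb, a receptor that is also a target, by -0.85.

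In the Wnt pathway 23 of 55 genes fell and 18 rose, and several ligands of the ectoderm were among those that fell. Wnt6, a ligand of the ectoderm, stood at 44.4, 49.5, 45.9, 33.1 and 41.2 CPM at 3 h and at 13.7, 10.8, 12.6, 11.4 and 4.1 CPM at 24 h, with no overlap. Wnt3, Wnt7b and Wnt10b fell from 15.5 to 5.44, from 23 to 10.1 and from 10.4 to 4.06 CPM. Lef1, a transcription factor of the pathway, fell from 50.8 ± 1.83 to 21.9 ± 2.49 CPM, and Axin2, its feedback target, from 97.7 ± 5.27 to 62.7 ± 9.84 CPM. The frizzled receptors went both ways, with log2 changes of 1.05 for Fzd9, 1.01 for Fzd5 and -1.17 for Fzd10. The inhibitor Dkk3 rose from 70.5 ± 3.47 to 129.7 ± 14.9 CPM and the inhibitor Wif1 fell from 74.4 ± 3.12 to 41.2 ± 3.91 CPM. These ectodermal ligands moved with the markers of basal epidermis, given next, and the part of that tissue in the pathway's change was not tested.

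Among other signals, 20 of 48 genes of BMP and TGF-beta rose and 12 fell, and 18 of 31 of the FGF pathway rose and 5 fell. Ltbp3 and Ltbp2, which hold TGF-beta in the matrix, rose from 189.9 to 411 and from 13.4 to 43 CPM, whereas Id2 and Id3, direct targets of BMP, fell by log2 changes of -0.74 and -0.73. Fgfr3, the receptor that restrains chondrocyte growth, rose from 124 ± 7.7 to 226 ± 12.5 CPM, and the ligand Fgf7 from 3.78 ± 0.512 to 10 ± 1.26 CPM. In the Notch pathway 8 of 21 fell and 3 rose, with Notch1 at 73.8 ± 5.19 and 52.5 ± 7.56 CPM. Of 22 genes of the insulin-like growth factor system 8 rose and 5 fell. Igf1 rose from 97.2 ± 10.5 to 159 ± 22.3 CPM and Igf2 from 854 ± 48.2 to 1187 ± 51.6 CPM.

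Most basal genes of the ectoderm fell, and some keratins of other states rose. In whole limbs fewer cells of a type and less RNA per cell cannot be told apart, here and in the cell types that follow. Of 23 markers of basal epidermis and periderm 15 fell and 2 rose, and their summed level ran from 623.5 to 994 CPM at 3 h and from 394 to 716 CPM at 24 h, so the summed levels overlapped. Grhl3, a transcription factor of the epidermal barrier, stood at 18.6, 18.3, 18.8, 15.1 and 19.1 CPM at 3 h and at 5.58, 5.25, 6.35, 6.0 and 4.1 CPM at 24 h. Krt15, a keratin of basal cells, fell from 70.7 ± 15 to 17.2 ± 6.81 CPM, and the adhesion gene Cdh1 from 27.5 ± 5.28 to 13.3 ± 2.38 CPM. Krt5 was not called (167 ± 43 and 98.9 ± 34.5 CPM, adjusted p = 0.0861). Krt17, a keratin of activated and periderm cells, stood at 11, 13.1, 11.6, 5.77 and 12.2 CPM at 3 h and at 43.3, 29.4, 38.1, 32.3 and 19.2 CPM at 24 h, every 24 h library above every 3 h library. Krt6a and Krt16 rose from 1.38 to 9.84 and from 1.41 to 8.65 CPM. Of 12 tested markers of differentiated epidermis 5 rose and none fell, with Krt1 at 5.56 ± 0.772 and 21.3 ± 8.25 CPM and Krt10 at 7.2 ± 1.67 and 18.3 ± 4.94 CPM. Ovol1, a transcription factor of epidermal cells leaving the cycle, fell from 10.1 ± 2.04 to 1.27 ± 0.17 CPM.

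Most vessel markers fell and a few arterial ones rose. Of 32 markers of blood vessel endothelium 21 fell and 4 rose, with summed levels of 1587 to 1665 CPM at 3 h and 1376 to 1509 CPM at 24 h, which do not overlap. Aplnr, a receptor of veins and sprouting vessels, stood at 63, 61.9, 66.1, 61.1 and 58.9 CPM at 3 h and at 11.6, 11.8, 11.9, 11 and 8.26 CPM at 24 h. Cdh5, the junctional cadherin found in all endothelium, fell by less, from 109 ± 5.83 to 76.1 ± 5.16 CPM, and Pecam1 went from 62.2 ± 2.53 to 48.1 ± 6.89 CPM (log2 change -0.39, adjusted p = 0.00046). The 4 that rose were Gja5, Gja4, Efnb2 and Sox7, of which the first 3 mark arteries. Sox17, another arterial gene of the list, was not among them. Gja5 stood at 30.9, 25.6, 28.4, 23.9 and 25.1 CPM at 3 h and at 48.5, 54.5, 40.6, 44.8 and 49.8 CPM at 24 h. Gja4 and Efnb2 had log2 changes of 0.64 and 0.41, and Efnb2 is also made by mesenchyme. Of 6 lymphatic markers 4 fell. Prox1, which specifies lymphatic endothelium and is also expressed in muscle, fell from 29.4 ± 4.61 to 16.1 ± 2.37 CPM, and Lyve1 from 1.26 to 0.146 CPM, with 4 of the 5 libraries at 24 h below the CPM of 3 reads. Of 10 markers of pericytes and smooth muscle 6 rose and 1 fell, led by Cspg4 (147 ± 6.8 to 285 ± 19.6 CPM) and Acta2 (129 ± 7.47 to 240.2 ± 39.2 CPM). Without 3 h library 1 or 24 h library 2 or 4, 4 of the 10 were called in all. Cspg4 is also made by cartilage and Acta2 by young muscle.

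Red cell genes fell while many macrophage genes rose. Of 19 red cell markers 12 fell and 1 rose, with summed levels of 2464 to 2891 CPM at 3 h and 1380 to 2363 CPM at 24 h. Slc4a1, the anion exchanger of red cells, fell from 21 ± 3.48 to 5.4 ± 1.36 CPM, and the embryonic globin Hbb-bh1 from 27.6 ± 5.63 to 8.69 ± 1.62 CPM, near copies of which could take some of its reads. Of 24 markers of macrophages and other leukocytes 14 rose and 5 fell, with summed levels of 137 to 153 CPM at 3 h and 251 to 326 CPM at 24 h. Genes of engulfment and lysosomes were among those that rose. Gpnmb, a glycoprotein of loaded lysosomes, stood at 0.689, 1.47, 0.962, 1.18 and 0.734 CPM at 3 h and at 42.7, 28.5, 44.6, 58.7 and 41.5 CPM at 24 h (log2 change 5.41 ± 0.24 (SE), adjusted p = 2.15e-09). Trem2, a lipid receptor, rose from 2.19 ± 0.655 to 7.89 ± 1.05 CPM, Ctss, a lysosomal protease, from 3.97 ± 0.508 to 10.4 ± 1.45 CPM, and C1qc, of complement, from 7.63 ± 1.2 to 21 ± 2.36 CPM. General markers did not follow. Ptprc, carried by all leukocytes, was at 1.91 ± 0.225 and 2.02 ± 0.365 CPM and Cx3cr1 at 11.1 ± 0.969 and 11.6 ± 2.53 CPM, and neither was called. Mrc1, F13a1 and Pf4, genes of resident fetal macrophages, fell by log2 changes of -0.40, -1.22 and -0.79. Gpnmb is also made by osteoblasts, and their part in its rise was not tested.

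Most glial genes fell, with the calcium-binding protein S100b among the exceptions. Of 19 markers of Schwann cells and neural crest glia 11 fell and 3 rose, with summed levels of 476 to 525 CPM at 3 h and 455.5 to 474 CPM at 24 h. Ednrb, the endothelin receptor of neural crest cells, stood at 35.3, 35.1, 28.5, 30.4 and 31.3 CPM at 3 h and at 6.78, 5.82, 6.67, 6.74 and 8.37 CPM at 24 h. Sox10, the crest and glial transcription factor, fell from 23.3 ± 2.41 to 9.2 ± 0.74 CPM, and Pou3f1, a factor of Schwann cells about to myelinate, from 5.07 ± 0.591 to 1.49 ± 0.509 CPM. S100b rose from 2.52 ± 0.706 to 12.3 ± 1.05 CPM, a gene that chondrocytes also express, and Pmp22 from 104 ± 10.2 to 160.3 ± 3.64 CPM. Mast cell and related markers were tested for 7 genes, of which 4 fell, led by Cpa3 (6.77 ± 0.917 to 2.11 ± 1.03 CPM).

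Imprinted growth genes and clock genes mostly rose. Of 22 imprinted growth genes 18 rose and 2 fell, with a median log2 change of 0.461. H19, a noncoding RNA, rose from 7191 to 12657 CPM, Meg3, another, from 912 ± 69.7 to 1832 ± 213 CPM, and Zim1, a zinc finger gene, from 66.7 ± 4.85 to 156 ± 20.1 CPM. Plagl1, a regulator of other imprinted genes, had a log2 change of 0.67, and Nnat fell by -0.40. Of 19 clock genes 12 rose and none fell. Their called members included activators (Clock and Npas2, log2 changes 0.44 and 0.96) and repressors (Cry2, Per1 and Bhlhe41, 0.52, 0.35 and 1.44). Arntl, the partner of Clock, was at 8.37 ± 1.07 and 8.34 ± 0.764 CPM (log2 change -0.02, adjusted p = 0.913). With 2 times only, the phase of a rhythm cannot be read. A list of nuclear retained RNAs and RNA quality genes also reflects how RNA was prepared, and 4 of its 6 tested members rose. The 6 include Lars2, a protein-coding gene, the short RNA Rn7sk, and Meg3, which is given above as an imprinted gene. Neat1 rose from 16.5 ± 2.94 to 36.1 ± 6.87 CPM. Malat1 rose by a log2 change of 0.41. This call was lost without 3 h library 1, 3 or 4 or 24 h library 2, 3, 4 or 5 (adjusted p from 0.0535 to 0.0845, edgeR). It was also lost without a filter (0.0702) and in the fit on all 45 libraries (0.134). The part of this list in other changes was not tested.

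The immediate early genes, which serum, wounding and handling induce within minutes, moved both ways, 7 of 31 rising and 10 falling. Ctgf and Cyr61, matricellular proteins that respond to stretch through YAP, stood at 22.5, 26.6, 25.5, 28 and 26.5 and 30.3, 32.1, 30.3, 37.5 and 38.9 CPM in the 3 h libraries and at 92.9, 76.7, 79.6, 89.9 and 79.7 and 83.6, 76, 94.1, 90 and 87.8 CPM in the 24 h libraries. Neither gene overlapped between the times. Jun, Junb, Dusp1 and Btg2 fell by log2 changes of -0.39, -0.58, -0.46 and -0.54, and Klf2 and Klf4 rose by 0.76 and 0.55. Fos was not called (16.8 ± 1.36 and 11.9 ± 5.17 CPM).

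The response to low oxygen did not separate the times but spread the 24 h libraries. Of 40 genes of hypoxia and glycolysis 7 rose and 3 fell, 10 called in all, a smaller share than the 40.2% of all genes. Their median log2 level over the 3 h mean was 0.75, 0.437, -0.238, -0.318 and 0.183 in 24 h libraries 1 to 5, with 37, 36, 10, 7 and 24 of the 40 genes above that mean, while the 3 h libraries ran from -0.0355 to 0.0582. Vegfa, the vessel growth factor, stood at 99.2, 104, 96.7, 98.7 and 106 CPM at 3 h and at 278, 209, 108, 93.5 and 122 CPM at 24 h, and Slc2a1, a glucose carrier, at 91, 97.5, 89.8, 90.1 and 100.6 and 172, 124, 51.5, 53.1 and 76 CPM. Libraries 1 and 2 were above every 3 h library for both genes. For Slc2a1 libraries 3 to 5 were below every 3 h library. For Vegfa library 4 was below every 3 h library and libraries 3 and 5 were above every one. Egln3, an oxygen sensor, and Ndrg1, a stress gene, ran from 7.23 to 32.7 and from 18.7 to 72.5 CPM among the 24 h libraries. With libraries 1 and 2 left out, 4 members rose and 14 fell, and the median turned from 0.239 to -0.12. Slc2a1 then went from a log2 change of 0.01 to -0.65 and Ldha, which makes lactate, from 0.10 to -0.27. The 2 libraries were left out for their high levels of these same genes. Lower values had to follow, so these numbers describe libraries 3 to 5 and are not a test. The same spread was present under BPS at 24 h: the medians were 0.398, 0.85, -0.216, -0.414 and -0.488 in 10 µM libraries 1 to 5, and 0.206 in library 2 of the 50 µM group against -0.306 to -0.15 in its other 4. The control libraries at 48 h were spread too, with medians of 0.299, -0.126, 0.551, 0.11 and -0.231 in libraries 1 to 5. What set libraries apart within these groups was not tested.

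**Figure D3:**
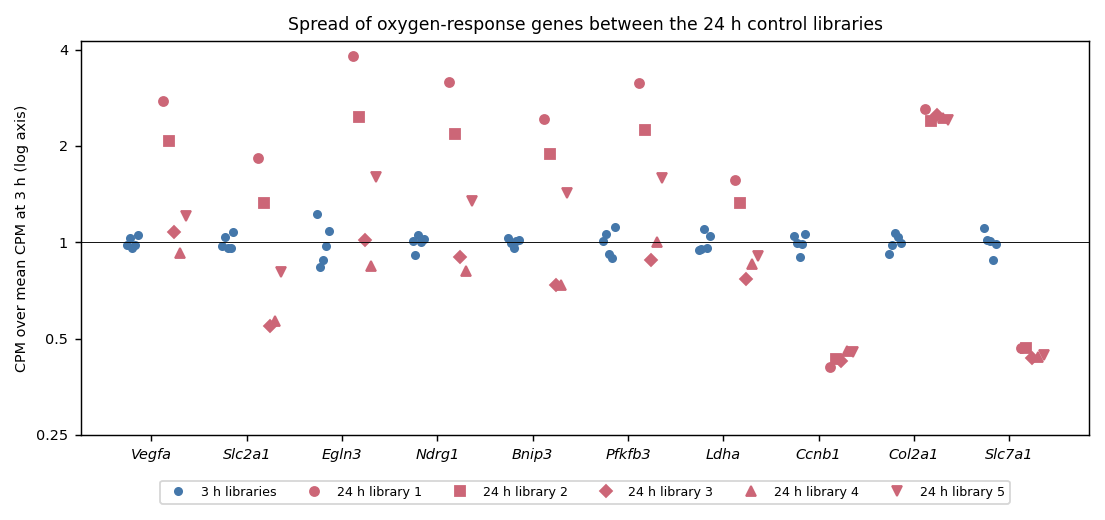
Level of 7 oxygen-response genes and 3 genes of other lists in each control library, as CPM divided by the mean CPM at 3 h (log axis), with 3 h libraries in one colour and 24 h libraries 1 to 5 by marker. Vegfa runs from 93.5 to 278 CPM among the 24 h libraries, whereas Ccnb1, Col2a1 and Slc7a1 lie close together within each time.

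Few ribosomal protein genes and few genes of oxidative phosphorylation were called. Of 74 cytosolic ribosomal protein genes 2 rose and 3 fell, and 2 were called in all without 3 h library 3 or 24 h library 2 or 3. Of 12 mitochondrially encoded genes none was called (edgeR, and 1 without 24 h library 5), and of 52 nuclear genes of oxidative phosphorylation 1 rose and 9 fell, with Atp5b, of the ATP synthase, at 878 ± 20.1 and 761 ± 11.4 CPM and 6 called in all without 3 h library 5. Ribosome biogenesis fell in 9 of 30 genes, led by Npm1 (1028 ± 53 to 814 ± 63.1 CPM) and Ncl (732 ± 67.4 to 601 ± 38.4 CPM), and rose in 4. Of 22 heat shock genes 6 rose and 5 fell, with Cryab, the small chaperone abundant in muscle, at 13.2 ± 1.53 and 37.1 ± 7.68 CPM and Hspa1b at 12.8 ± 0.928 and 5.9 ± 2.29 CPM. Of 21 antioxidant targets of NRF2 3 rose and 5 fell. Interferon-stimulated genes numbered 5 rising and 2 falling of 27 (4 in all without 24 h library 2), with Ifi27 the largest (4.47 ± 1.46 to 15 ± 1.3 CPM). In the inflammatory list 5 of 20 rose and 3 fell, and Cxcl14, its most abundant member, fell from 406 ± 29 to 214 ± 36.5 CPM. Adipocyte markers were tested for 4 genes, with Cd36 and Lpl rising by 1.51 and 0.48, and the defining gene Pparg at 0.796 ± 0.331 and 1.13 ± 0.508 CPM without a call.

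Whether the first day differed from the second was asked of the control libraries at 48 h. The contrast took the change from 24 to 48 h minus that from 3 to 24 h; both changes share the 24 h libraries, so the 2 days are not independent and their values are given side by side. Of 17262 genes tested in it 11.6% were called, 5.55% with the higher change on the second day and 6.06% with the lower. All 42 G2 and mitosis genes were called in it as higher. Ccnb1 fell by a log2 change of -1.22 on the first day and changed by -0.04 ± 0.07 on the second (contrast 1.18 ± 0.11, adjusted p = 3.47e-07). Of the amino acid genes 21 of 35 were called as higher and none as lower. Sesn2, a sensor of leucine, stood at 68 ± 3.24, 32.3 ± 1.89 and 49.3 ± 5.04 CPM at 3, 24 and 48 h (adjusted p = 6.11e-08 for the contrast), and Slc7a11 at 21.9, 6.8 and 11.1 CPM. Of the cholesterol genes 17 of 25 were called as lower and none as higher: Nsdhl, a late enzyme of the pathway, stood at 23.7, 37.1 and 28.4 CPM and Idi1, an early one, at 13.9, 21.5 and 15.9 CPM. Of the ER chaperones 9 of 25 were called as lower, with Manf at 59.5, 104 and 113 CPM.

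Most matrix genes also rose less on the second day, 18 of 31 tested being called as lower in the contrast and none as higher. They still went on rising: 23 of 31 were called higher at 48 h than at 24 h and none lower. Over all genes 9.44% were called higher in that comparison. Matn4, a matrilin whose mean did not rise further, stood at 351, 814 and 793 CPM. Of 18 Hox genes tested 7 were called as lower in the contrast and none as higher, and 10 of 18 fell from 24 to 48 h, against 6.55% of all genes (16% called in either direction). Hoxd12 stood at 143 ± 3.47, 140.0 ± 8.15 and 86.8 ± 6.82 CPM, a contrast of -0.64 ± 0.10 (adjusted p = 0.000126). Endothelial genes were called as higher in 15 of 32 cases and lower in 3, and basal epidermal genes as higher in 12 of 23 and lower in 1. Krt10, of the first suprabasal layers, stood at 7.2 ± 1.67, 18.3 ± 4.94 and 178 ± 35.6 CPM, most of its rise falling on the second day (contrast 1.97 ± 0.38, adjusted p = 0.00364).

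**Figure D4:**
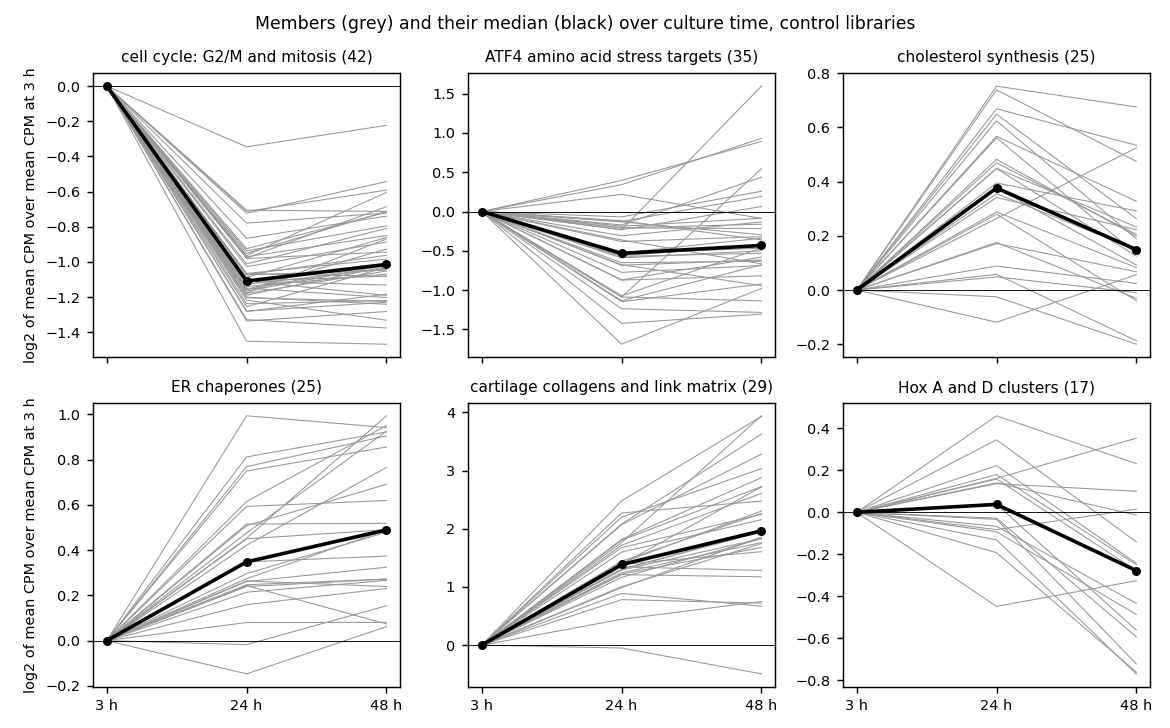
Log2 of mean CPM over the 3 h mean for the members of 6 lists (grey, one line per gene) and their median (black) at 3, 24 and 48 h in control libraries. The median of the mitotic genes falls to 24 h and then levels off, that of the cholesterol genes rises and turns back, and that of the Hox genes is level to 24 h and lower at 48 h.

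The same interval was measured in 10 libraries given 10 µM BPS, which share no sample with the controls. The labels do not say whether these libraries shared litters or culture days with the controls. There 42.9% of 16691 genes were called between 24 and 3 h. Of the 6642 genes called in the controls 6608 were tested at 10 µM, of which 6559 (99.3%) changed in the same direction, 5448 (82.4%) were called in that direction and 0 were called in the opposite one. Kif2c had log2 changes of -1.47 in the controls and -1.55 at 10 µM, Slc7a1 of -1.17 and -1.09, Cytl1 of 2.25 and 2.26, Gpnmb of 5.41 and 5.09, and Gja5 of 0.81 and 0.89. Of 304 genes that the naming rule takes and that were called in the controls, 303 were tested at 10 µM, and all 303 had the same sign. Most of these were picked for large or clear changes in the controls, so their shared sign adds little to the share above. The difference between the 10 µM and the control response, tested in 1 fit over 30 libraries, was called for 0 of 18007 genes by edgeR, with 444 at an unadjusted p below 0.05 and a smallest adjusted p of 0.946, and for 0 genes by DESeq2 and limma-voom. For Cytl1 this difference was -0.00 ± 0.11 (SE). At 50 µM edgeR called 0 of 18007 genes (1313 at an unadjusted p below 0.05, smallest adjusted p 0.132), limma-voom 0 and DESeq2 5. For Cytl1 the difference was -0.01 ± 0.11. A difference that misses the threshold does not show that the responses were equal.

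**Figure D5:**
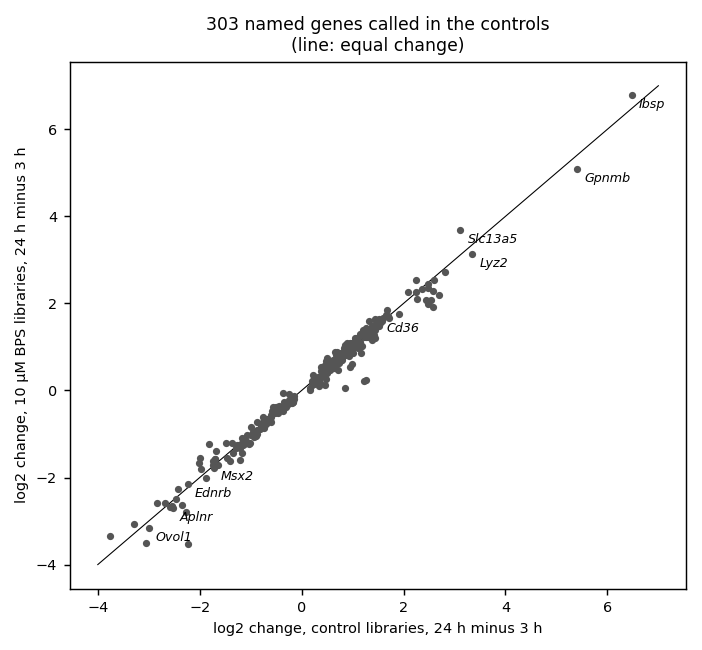
Log2 change from 3 to 24 h of the 303 genes that the naming rule takes, called in the controls and tested at 10 µM, in control libraries (x axis) and in 10 µM BPS libraries (y axis), 5 libraries per time and treatment, with a line at equal change. The points lie along the line, from Ibsp at 6.48 in the controls to the genes that fell, and all 303 share their sign. Most were picked for large or clear changes in the controls.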

How the data were processed

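RNA was extracted from pooled forelimbs, purified by poly-A selection and copied with random hexamers, per the labels' protocols. Strand was not stated, so reads of a gene and of an antisense neighbour cannot be told apart. Per the submitters' processing notes the authors used CASAVA 1.8, STAR 2.5, HTSeq 0.6.1, DESeq2 and the mm10 build (GRCm38). The authors deposited raw read counts per gene for each library, and these counts were used throughout. The deposited tables also hold scaled counts as a normalized signal, FPKM values, log2 fold changes and p-values, per the file headers, and these were not used for any result here.

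Counts of the 9 tables were joined by gene (34994 genes, 30276 of them in the table of this comparison), and the 1319925 counts found in more than 1 table were identical. Samples were grouped by their labels. Genes were filtered with filterByExpr (minimum count 10), scaled by TMM and tested with edgeR 4.0.16 (glmQLFit with robust estimation, glmQLFTest, two-sided, Benjamini-Hochberg over all genes tested, R 4.3.3). CPM values use TMM factors over all 45 libraries. DESeq2 1.42.0, limma 3.58.1 (voom), other scalings and filters, the replicate block and leaving out libraries were alternatives. On simulated counts for 16536 genes of this comparison, 71% of 100 genes changed 1.5-fold and 80% of 100 changed 2-fold were recovered, with 7 false calls. All other genes were simulated without a change, whereas 40.2% were called in the data. The adjustment of p depends on that share, so these rates need not hold for the real comparison.

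The comparison, the 53 gene lists and the tests were chosen with earlier results of these data known. Named by rule were the 15 largest rises and falls of at least 1 CPM without gene models, in each list the 6 members with the smallest adjusted p, the 10 smallest adjusted p of the contrast between days, and a fixed panel. Some genes that the rule names are not reported here. Further list members (such as Aurka, Cnmd, Ryr1, Krt17, Wnt6, Trem2, Ptprc, Gja4, Vegfa and Hoxd12) were named after their values were seen. Promoter windows came from RefSeq (GRCm38.p6), and the window nearest to a gene's 5′ end was taken. Printed stretches are those of the members with the smallest adjusted p among those considered that held the motifs before the start.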

Additional observations from a re-analysis of the deposited data

Results flagged for a closer look

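In 486 groups of 5 control libraries (each gene named with values at 3 h and at 24 h, the summed markers of each cell type, the oxygen-response median and the total counts), 25, or 5.14%, held a library whose gap to its neighbour exceeded 0.71 of the range. Chance flags about 1 in 20 groups, which is close to this share, and the flags fell on several libraries.

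Among the 3 h libraries, library 1 was low for Cnmd (42.8 CPM) and high for Ncl (849.9 CPM), Tbx3 (81.2 CPM) and the summed markers of blood vessel endothelium (1665 CPM). Library 2 was low for Mmp9 (9.24 CPM) and high for Ptprc (2.31 CPM) and Stfa3 (1.13 CPM). Library 3 was high for Alpl (13.5 CPM) and low for Hoxa13 (74.9 CPM) and Sox5 (67.7 CPM). Library 4 was low for Atp5b (842.9 CPM), Cxcl14 (354 CPM), Grhl3 (15.1 CPM) and Krt17 (5.77 CPM) and high for Npas2 (3.54 CPM).

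Among the 24 h libraries, library 1 was low for Panx3 (28.6 CPM) and high for Thbs2 (139.5 CPM). Library 3 was high for Hoxd12 (154 CPM) and Hoxd9 (72.9 CPM), and library 4 for Stk32b (65.7 CPM). Library 5 was low for Aplnr (8.26 CPM), Eln (264.5 CPM) and Fkbp10 (206.6 CPM), and high for Lyve1 (0.438 CPM) and Xylt1 (87.4 CPM).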

How the results depend on the processing

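The count of 6642 genes stayed within 1.5 times under every alternative: 6624 with DESeq2 size factors in edgeR, 6833 with total-count scaling (2915 higher and 3918 lower), 6760 with DESeq2, 6603 with limma-voom, 6744 without a filter on low counts, 6459 with a mean of at least 1 CPM and 6903 in the fit on all 45 libraries. Leaving out 1 library gave 5960 to 6844. Without 24 h libraries 1 and 2, an alternative chosen after seeing the data, 5203 of the 5565 calls were among the 6642. For named genes, 7977 of 8185 results under alternatives kept their direction and side of the threshold, 168 lost the call, 38 gained it and 2 turned. Of 376 named genes called, 31 lost the call under at least 1 alternative, and of 212 whose values are given in the text, 7 did: Atf4, Malat1, Tbx4, Hoxa9, Hoxa13, Hoxd9 and Hoxd13.

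Replicate numbers did not pair the 3 h with the 24 h control samples. Deviations of same-numbered libraries correlated at -0.126, 0.0107, 0.0274, 0.0483 and 0.0222, and no 3 h library correlated best with its own number. Within 24 h, libraries 1 and 2 had the highest oxygen-gene medians in the controls (0.75 and 0.437) and at 10 µM (0.398 and 0.85). At 50 µM library 2 was highest (0.206) and library 1 stood at -0.256. In the 48 h controls library 3 was highest (0.551). Whether a replicate number marks a culture run shared by the treatments was not tested. With the number as a block 6220 genes were called, 6141 of them shared, Atf4 (adjusted p = 0.0667) and Hoxa13 (0.0781) lost their calls, and with this block 3 ribosomal protein genes, 4 interferon genes and 2 genes of the 50 µM difference were called. DESeq2 called 5 for that difference, and leaving out 1 library 0 to 1.

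Some list values moved. Total-count scaling gave medians of 0.109 for sulfation genes, 0.0335 for heat shock and -0.0939 for ribosome biogenesis. Limma-voom called 6 oxygen genes and gave -0.0732 for the NRF2 median. Without a filter the medians were 0.19 for sulfation, 0.699 for osteoblasts, 0.121 for Hox, 0.335 for inflammation and -0.864 for histones, with 10 mast cell and 8 differentiated epidermal genes called. At 1 CPM they were 0.118 for Hox and -0.793 for red cells, with 5 inflammatory genes called. The fit on 45 libraries gave 0.508 for early chondrocyte factors, 0.188 for sulfation, 0.341 for inflammation and -0.867 for histones, with 2 ribosomal protein and 7 mast cell genes called. Filters change which members are tested; the other causes were not tested.

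Without 24 h libraries 1 and 2 the medians were 0.53 for early chondrocyte factors, 0.204 for sulfation, 0.544 for osteoblasts, -0.618 for patterning, -0.11 for Notch, -0.12 for oxygen genes, 0.447 for cholesterol, -0.506 for endothelium, 0.388 for macrophages, -1.31 for mast cells, 0.312 for the clock and -0.101 for alpha-arrestins. Called were then 1 Hox gene, 18 oxygen genes, 5 NRF2 targets, 6 of oxidative phosphorylation, 8 mast cell and 3 differentiated epidermal genes, and Slc2a1 (-0.65) and Ldha (-0.27) turned. For the oxygen genes this fit is not a test, since their levels led to the choice of the 2 libraries.

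Leaving out each library in turn, medians ran from 0.433 to 0.554 (early chondrocyte factors), 0.149 to 0.186 (sulfation), 0.121 to 0.21 (proteases), 0.402 to 0.543 (pericytes), 0.0761 to 0.26 (inflammation), 0.502 to 0.769 (macrophages), -0.461 to -0.352 (Schwann cells), 0.637 to 0.816 (hypertrophic genes), -0.589 to -0.487 (patterning), 0.18 to 0.355 (tendon), 0.00149 to 0.0956 (Hox) and -1.01 to -0.754 (red cells). Called members ran from 2 to 7 (ribosomal proteins), 3 to 5 (Hox), 6 to 11 (oxidative phosphorylation), 4 to 7 (pericytes), 0 to 1 (mitochondrial genes) and 4 to 7 (interferon).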

Other observations

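Outside the gene lists, genes of secreted proteins were among the largest rises. C1qtnf3, a secreted relative of complement C1q, rose from 4.77, 7.77, 11.2, 6.95 and 7.27 CPM in 3 h libraries 1 to 5 to 40.5, 50.5, 44, 52.2 and 45 CPM in the 24 h libraries (log2 change 2.59 ± 0.17 (SE), adjusted p = 1.31e-07, edgeR) and stood at 145 ± 29.1 CPM (SD, n = 5) at 48 h. Itgbl1, a secreted protein with integrin-like repeats, rose from 0.586 ± 0.161 to 3.35 ± 0.671 CPM, and Clec3b, which binds plasminogen, from 0.915 ± 0.212 to 5.18 ± 1.74 CPM. Stk32b, a kinase, rose from 23.4 ± 3.52 to 60.5 ± 2.94 CPM and stood at 49.5 ± 2.72 CPM at 48 h, one of the 10 smallest adjusted p-values of the contrast between the days (1.47e-07). For all 4 genes the 24 h libraries lay above the 3 h libraries.

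Among genes of surface epithelia the directions differed. Gabrp, a subunit of the GABA receptor made by epithelia, fell from 4.54 ± 0.959 to 0.56 ± 0.406 CPM, whereas Ly6d, a surface protein of stratified epithelia, rose from 0.282 ± 0.188 to 1.95 ± 0.681 CPM and stood at 6.9 ± 1.97 CPM at 48 h.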
